A study of Mus musculus with 24 samples.

Results

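The semaphorin, plexin, neuropilin, ephrin and Eph receptor genes of the mouse hippocampus were measured here by RNA sequencing in ventral and dorsal tissue. Members were the genes whose symbol begins with Sema and a digit, Plxn, Epha, Ephb, Efna or Efnb, or is Nrp1 or Nrp2, and whose mean level over the 24 libraries was at least 0.5 CPM, a gene's count per 1000000 counts of its library. Of 51912 genes in the deposited table, 56 matched by symbol and 51 were members: 20 semaphorins, 9 plexins, 2 neuropilins, 7 ephrins and 13 Eph receptors. The 5 genes under the limit were Efna4 (0.304 CPM), Epha1 (0.0867 CPM) and the antisense genes Plxna4os1, Plxna4os2 and Plxna4os3. Efna4 was the nearest gene below the limit and Epha2, at 1.3 CPM, the nearest above it. All 51 members also passed the low-count filter in every fit.

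The animals were 12 C57BL/6J mice, the offspring of fathers (sires) that had received chronic nicotine or chronic saline. There were 3 nicotine-sired males, 3 nicotine-sired females, 3 saline-sired males and 3 saline-sired females, named A to C within each group, and ventral and dorsal hippocampus were sequenced from every animal, which gave 24 libraries in 8 groups of 3. The labels state neither the nicotine dose nor the age of the offspring. Library titles carry the number 492 for nicotine-sired males, 493 for nicotine-sired females, 497 for saline-sired males and 499 for saline-sired females, so whatever this number marks, a sire or a litter among the possibilities, cannot be told apart from sire treatment within a sex. The treatment was given to sires, so p-values below measure the spread between libraries of a group, which may not be independent replicates of the treatment. In tissue pieces, fewer cells of a type and less RNA per cell cannot be told apart.

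Semaphorins are secreted or membrane-bound ligands that steer axons and dendrites, mostly by repulsion. Their receptors are the plexins, which most secreted semaphorins reach through a neuropilin co-receptor. Ephrins are membrane-bound ligands of the Eph receptor tyrosine kinases: A ephrins hang on a lipid anchor and mainly bind EphA receptors, B ephrins cross the membrane and mainly bind EphB receptors, and signals run in both directions between the touching cells. In the hippocampus both systems guide afferent and mossy fibres during development, and in the adult they act on dendritic spines and synapses. The dorsal hippocampus is best known for spatial memory and the ventral hippocampus for emotional and stress responses.

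Total counts lay between 32049770 and 47486547 per library, with a median of 39578834. In all 24 libraries, the levels of Xist and Ddx3y went with the sex given in the labels. The ventral hippocampus markers Trhr and Grp were higher in ventral libraries, with log2 fold changes of 2.75 ± 0.31 and 1.87 ± 0.19 (standard error, SE). Lct, a dorsal hippocampus and dentate granule cell marker, was lower in ventral libraries at -2.57 ± 0.31. Of 6 listed ventral or dorsal markers, 3 were higher and 2 lower at an edgeR adjusted p under 0.05. Coch (0.26 ± 0.32) did not pass. Some libraries stood apart. The dorsal libraries of saline-sired male C and saline-sired female C held 41.7 and 37.0 CPM of Dcn, a ventral hippocampus marker that fibroblasts also express, while the other dorsal libraries held at most 14.98 CPM. They also held 5.53 and 3.54 CPM of Trhr, where the other dorsal libraries held at most 1.34 CPM. Their sums of 8 meninges and fibroblast markers, Dcn among them, were 99.8 and 136.5 CPM, within the 49.0 to 236.2 CPM of the other dorsal libraries. The source of these levels was not tested. In nicotine-sired female A, 5 neocortex markers summed to 357 CPM in the ventral and 373 CPM in the dorsal library, where the other 22 libraries lay between 151 and 246 CPM. The sum of 12 choroid plexus markers was 1987 and 1892 CPM in the ventral libraries of nicotine-sired females B and C, while the 10 other ventral libraries reached 178 CPM. In dorsal libraries it was between 1125 and 5684 CPM in nicotine-sired males A and B, nicotine-sired females B and C, saline-sired male A and saline-sired female C, and at most 160.3 CPM in the other 6. Counts with and without these animals are given with the region results and, for sire treatment, where the count moved.

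Levels of different genes were compared as CPM per kilobase of annotated exon, averaged over the 24 libraries. The transmembrane ligand ephrin-B3 gene Efnb3 was the highest member at 39.4 CPM per kb, next to the semaphorin Sema7a at 33.9, the receptor Epha4 at 31.4, the semaphorin Sema6b at 28.5 and the ligand Efna3 at 25.3 CPM per kb. Epha4 binds ligands of both ephrin classes. Among receptors for semaphorins, Plxna1 was highest at 14.8 CPM per kb, and Nrp2 and Nrp1 stood at 4.88 and 4.31 CPM per kb. Within each family but the neuropilins the levels were spread widely. The lowest were Epha2 among the Eph receptors at 0.277 CPM per kb and Sema3a among the semaphorins at 0.418. Plxna3 was lowest among the plexins at 1.52 and Efna5 among the ephrins at 1.73. Summed over members, the level was 115 CPM per kb for semaphorins, 59.2 for plexins, 9.19 for neuropilins, 80.3 for ephrins and 84.8 for Eph receptors. In the secreted class, Sema3a, Sema3b, Sema3d and Sema3f were each under 0.8 CPM per kb. Sema3g stood at 1.36, Sema3c at 2.62 and Sema3e at 6.02 CPM per kb, beside a median of 2.70 over all semaphorins.

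**Figure D1:**
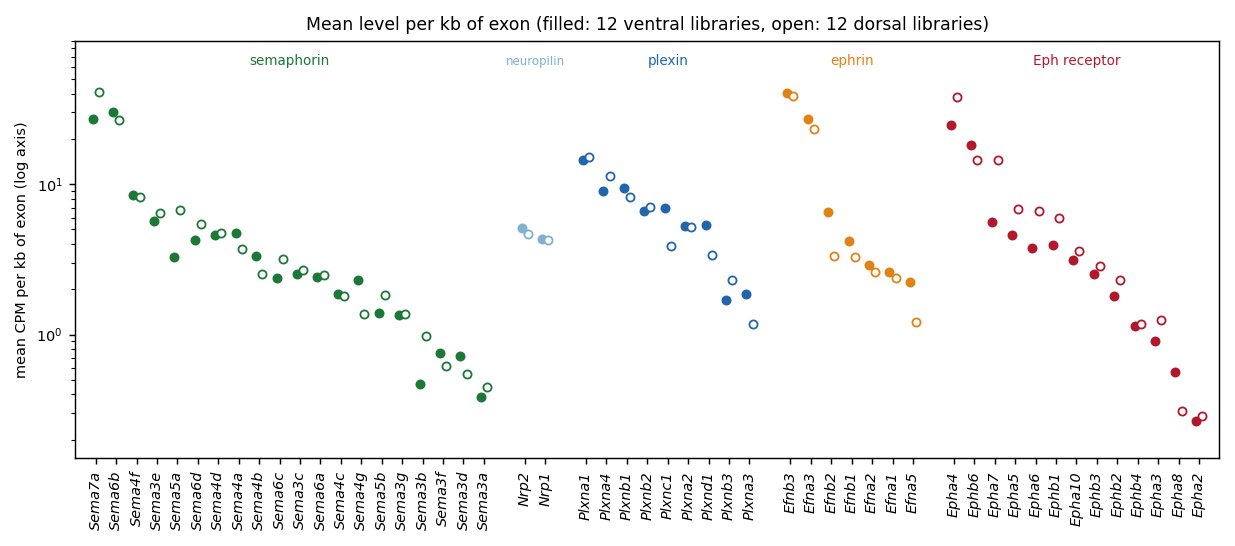
Mean level of each of the 51 members in CPM per kb of exon (log axis), by family, in the 12 ventral libraries (filled) and the 12 dorsal libraries (open). Among Eph receptors, Epha2 lies at 0.267 (ventral) and 0.287 (dorsal) and Epha4 at 24.74 and 37.95 CPM per kb. Among ephrins, Efna5 lies at 2.25 (ventral) and 1.21 (dorsal) and Efnb3 at 40.4 and 38.3 CPM per kb.

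The first comparison set ventral against dorsal hippocampus over all 12 animals. The ephrin ligands that differed were higher in ventral libraries (4 of 7), and most of the Eph receptors that differed were lower there (7 of 13, with 2 higher). Semaphorins and plexins went both ways: 5 of 20 semaphorins were higher and 6 lower, and 4 of 9 plexins were higher and 2 lower. Neither neuropilin passed, with edgeR or DESeq2, and neither had an unadjusted p under 0.05. In all, edgeR's quasi-likelihood test with Benjamini-Hochberg adjustment over 19849 genes called 30 of 51 members, where it called 29.2% of all genes tested. The 15 higher and 15 lower members stand beside 14.3% of all genes called higher and 14.9% called lower, and 32 members had an unadjusted p under 0.05, beside 39.3% of all genes. The members' median log2 fold change was -0.04, beside -0.01 over all genes, and the family medians were 0.22 for ephrins, -0.36 for Eph receptors, -0.04 for semaphorins and 0.03 for plexins. Groups of 12 libraries did not overlap at all for 6 members, Efnb2, Plxna3 and Sema4g (higher) and Epha7, Ephb1 and Sema7a (lower), where 1.15% of 16889 genes with a mean of at least 0.5 CPM had no overlap. With the animal as a block 34 members were called. Without nicotine-sired female A, saline-sired male C and saline-sired female C, 31 were called, 29 of them among the 30, and without nicotine-sired females B and C 29 were called, 26 of them among the 30. Both of these sets were left out after the data were seen.

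**Figure D2:**
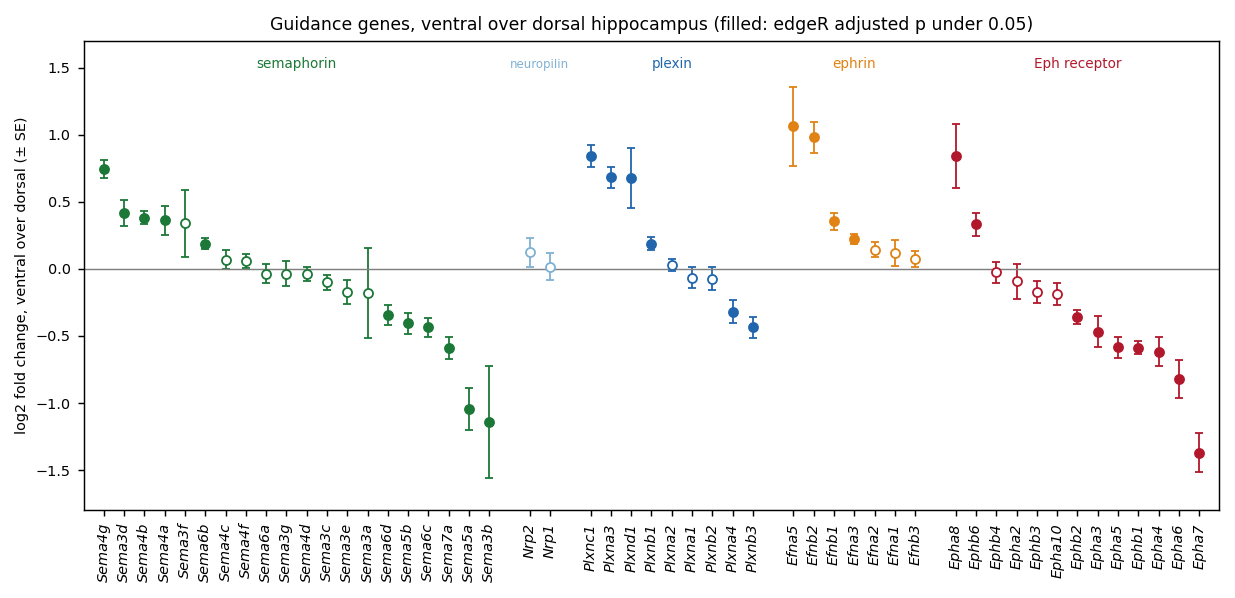
Log2 fold change, ventral over dorsal, of each member by family, with its SE (edgeR, 24 libraries; filled points have an adjusted p under 0.05). All 4 filled ephrins lie above 0, and 7 of 9 filled Eph receptors lie below 0, with Epha7 the lowest at -1.37.

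Among semaphorin ligands, the membrane-bound class 4 member Sema4g differed most clearly by its p-value. Its 12 ventral libraries ran from 17.9 through a median of 19.8 to 22.0 CPM, and its 12 dorsal libraries from 9.53 through 11.3 to 14.9 CPM. Every ventral library lay above every dorsal library, and the ventral library was higher in 12 of 12 animals. The log2 fold change was 0.75 ± 0.07 with an edgeR adjusted p of 1.33e-07. Sema4g lies on chromosome 19, 44989101 to 45003397 (GRCm38, here and below). Its promoter, from 250 bases before to 50 after the RefSeq start (GRCm38.p6, chr19:44989094-44989393, plus strand), is shown because this is the clearest semaphorin. Capitals mark the GC box GGGCGG, read on either strand, and the E-box CAGCTG, and none of the marked stretches overlap.
Sema4g: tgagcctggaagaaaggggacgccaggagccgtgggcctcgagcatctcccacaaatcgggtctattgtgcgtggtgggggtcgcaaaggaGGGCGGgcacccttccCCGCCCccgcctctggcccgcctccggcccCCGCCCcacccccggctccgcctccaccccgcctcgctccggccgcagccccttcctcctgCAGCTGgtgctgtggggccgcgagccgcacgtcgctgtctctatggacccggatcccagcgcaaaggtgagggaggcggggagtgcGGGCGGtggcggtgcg

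Other class 4 members were higher too, or did not pass. Sema4b averaged 18.7 ± 1.52 CPM in ventral and 14.3 ± 1.21 CPM in dorsal libraries (SD, n = 12), a log2 fold change of 0.38 ± 0.05 with an edgeR adjusted p of 4.2e-06, and was higher in 12 of 12 animals. Sema4a, at 0.36 ± 0.11, was called with an edgeR adjusted p of 0.0171, and the call ended without saline-sired female A. Its highest dorsal library, 37.4 CPM against at most 23.1 CPM in the others, was nicotine-sired female A, the animal with high neocortex markers. Sema4c, a ligand of plexin B2, Sema4d, a ligand of plexin B1, and Sema4f had log2 fold changes of 0.07, -0.04 and 0.06 and did not pass.

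Sema7a, a lipid-anchored semaphorin that binds plexin C1 and integrins, went the other way. It ran from 75.0 through 87.1 to 108 CPM in ventral and from 114 through 124 to 209 CPM in dorsal libraries, so that the regions did not overlap. It was lower in the ventral library of 12 of 12 animals, with a log2 fold change of -0.59 ± 0.08 and an edgeR adjusted p of 2.06e-05. The 209 CPM were again in nicotine-sired female A. Both members of class 5, transmembrane ligands with thrombospondin repeats, were lower in ventral libraries. Sema5a ran from 38.2 through 65.2 to 76.1 CPM in ventral and from 67.3 through 135 to 173 CPM in dorsal libraries, and only the lowest dorsal library, that of nicotine-sired female A, lay within the ventral range. Its log2 fold change was -1.05 ± 0.16 with an edgeR adjusted p of 8.17e-05, and that of Sema5b was -0.41 ± 0.08.

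The transmembrane class 6 was split. Sema6b, which binds plexin A4, averaged 120.5 ± 13.7 CPM in ventral and 106 ± 14.6 CPM in dorsal libraries (SD, n = 12) and was higher by 0.19 ± 0.04. Sema6c (-0.43 ± 0.07) and Sema6d (-0.34 ± 0.08), a ligand of plexin A1, were lower, and Sema6a, a ligand of plexins A2 and A4, had -0.04 ± 0.07 and did not pass. The edgeR adjusted p-values of the called class 6 genes were 0.00127 for Sema6b, 8.14e-05 for Sema6c and 0.00174 for Sema6d. Of 7 secreted class 3 semaphorins, 2 were called. Sema3d was higher in ventral libraries (6.20 ± 0.823 CPM against 4.72 ± 1.18 CPM in dorsal libraries; SD, n = 12), with a log2 fold change of 0.41 ± 0.10 and an edgeR adjusted p of 0.00224. Sema3b was lower at -1.14 ± 0.42 with an edgeR adjusted p of 0.0484, and this call ended in 10 of 12 refits that each left out 1 animal, and held without nicotine-sired female A or saline-sired male C. Its highest values, 12.8 and 11.6 CPM, were in the dorsal libraries of saline-sired male A and nicotine-sired female B, which also had the highest sums of 12 choroid plexus markers, 5601 and 5684 CPM; the other 22 libraries held at most 6.97 CPM of Sema3b. Its ventral values over 2.5 CPM were likewise those of nicotine-sired females B and C. With the choroid plexus markers as a covariate the log2 fold change of Sema3b was -0.13 with an edgeR adjusted p of 0.602 (0.0161 to 0.761 over 22 alternative settings). Sema3e, which acts on plexin D1 without a neuropilin, had -0.17 ± 0.09 and did not pass. Of 22 alternative settings (adjusted p from 0.0266 to 0.971), 2 called it, in opposite directions: -0.17 ± 0.06 with the animal as a block (edgeR adjusted p of 0.0334) and 0.37 ± 0.10 with the dentate marker covariate described below. Sema3a, Sema3c, Sema3f and Sema3g did not pass. Sema3f, the neuropilin 2 ligand that limits spine number, had a log2 fold change of 0.34 ± 0.25, and without saline-sired female C it was called at 0.70 ± 0.16 with an edgeR adjusted p of 0.00339 (0.00339 to 0.836 over 22 alternative settings).

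Among the receptors for semaphorins, Plxnc1, the receptor of Sema7a, was higher in the ventral hippocampus, the reverse of its ligand. Ventral libraries ran from 40.5 through 59.8 to 67.2 CPM and dorsal libraries from 26.7 through 30.9 to 53.5 CPM. The ranges overlapped only through the highest dorsal library, that of saline-sired male C, as the next highest dorsal library held 35.1 CPM. The lowest ventral library was that of saline-sired female C. In 12 of 12 animals the ventral library was the higher one. The log2 fold change was 0.84 ± 0.08 with an edgeR adjusted p of 4.52e-07. Plxnc1 lies on chromosome 10, 94790866 to 94944835. Its promoter (RefSeq, GRCm38.p6, chr10:94944796-94945095, minus strand) is shown as that of the clearest plexin, with GGGCGG on either strand in capitals.
Plxnc1: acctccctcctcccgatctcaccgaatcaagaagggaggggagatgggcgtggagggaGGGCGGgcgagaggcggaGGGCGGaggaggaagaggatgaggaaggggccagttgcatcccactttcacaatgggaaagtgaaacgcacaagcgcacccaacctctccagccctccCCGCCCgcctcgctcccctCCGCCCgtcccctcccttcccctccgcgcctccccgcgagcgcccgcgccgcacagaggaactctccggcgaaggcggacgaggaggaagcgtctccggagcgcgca

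Plxna3, which with neuropilin 2 receives Sema3f, ran from 12.3 through 14.3 to 17.8 CPM in ventral and from 6.98 through 9.02 to 12.1 CPM in dorsal libraries. The regions did not overlap, and the log2 fold change was 0.68 ± 0.08 with an edgeR adjusted p of 1.32e-06. Plxnb1, the receptor of Sema4d, was higher by 0.19 ± 0.05 and in 12 of 12 animals, with an edgeR adjusted p of 0.00568; 257 bp of its exons lie opposite the antisense gene Gm7628. Plxnd1, the receptor of Sema3e, was called at 0.68 ± 0.22 with an edgeR adjusted p of 0.0292, but not in 7 of 12 refits without 1 animal. The animals whose absence ended it were A and B of the males from either kind of sire, nicotine-sired females B and C, and saline-sired female A. Plxnb3, a receptor of Sema5a, was lower at -0.44 ± 0.08 (11.03 ± 1.40 CPM in ventral and 15.1 ± 3.03 CPM in dorsal libraries; SD, n = 12), with an edgeR adjusted p of 2.1e-04. Plxna4 was lower at -0.32 ± 0.09 with an edgeR adjusted p of 0.00921, in 12 of 12 animals. Plxna1, Plxna2 and Plxnb2 had log2 fold changes of -0.07, 0.03 and -0.07 and did not pass. The co-receptors did not pass either: Nrp1 averaged 42.5 ± 8.88 CPM in ventral and 41.8 ± 5.95 CPM in dorsal libraries, and Nrp2 averaged 60.2 ± 9.79 CPM in ventral and 55.4 ± 9.22 CPM in dorsal libraries (SD, n = 12). Their log2 fold changes were 0.02 ± 0.10 for Nrp1 and 0.12 ± 0.11 for Nrp2, and both were called under marker covariates, as given with the marker lists.

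Among ephrin ligands, Efnb2 showed the clearest difference. This transmembrane ligand, also known for arterial identity and for spine and synapse maturation, ran from 35.6 through 45.7 to 49.9 CPM in ventral and from 16.7 through 20.6 to 34.7 CPM in dorsal libraries. The regions did not overlap, though the highest dorsal library came close to the lowest ventral one. The ventral library was higher in 12 of 12 animals, least so in saline-sired female C, whose own log2 ratio was 0.29 (pseudocount 0.5 CPM), beside a median of 1.12. The log2 fold change was 0.98 ± 0.11 with an edgeR adjusted p of 4.34e-06. Efnb2 lies on chromosome 8, 8617434 to 8661242, and its promoter is shown as that of the clearest ephrin (RefSeq, GRCm38.p6, chr8:8661193-8661492, minus strand; GGGCGG in capitals).
Efnb2: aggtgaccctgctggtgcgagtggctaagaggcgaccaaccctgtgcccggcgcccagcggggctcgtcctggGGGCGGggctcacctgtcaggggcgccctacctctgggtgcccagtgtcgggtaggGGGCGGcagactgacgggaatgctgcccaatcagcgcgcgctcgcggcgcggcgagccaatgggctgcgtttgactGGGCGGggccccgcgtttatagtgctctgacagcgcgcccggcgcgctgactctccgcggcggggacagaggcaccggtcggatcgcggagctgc

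Efnb1 was higher as well, at 14.5 ± 0.9997 CPM in ventral and 11.3 ± 1.45 CPM in dorsal libraries (SD, n = 12), with a log2 fold change of 0.35 ± 0.06 and an edgeR adjusted p of 1.2e-04. Efnb3, the highest member per kb of exon, had 0.07 ± 0.06 and did not pass. Of the A ephrins, Efna3, a ligand of EphA4, was higher by 0.22 ± 0.04 and in 12 of 12 animals, with an edgeR adjusted p of 1.3e-04. Efna5, a ligand that is graded across many brain maps, ran from 5.38 through 8.85 to 17.1 CPM in ventral and from 1.46 through 3.56 to 18.9 CPM in dorsal libraries. It was higher in the ventral library of 11 of 12 animals. The exception was nicotine-sired female A, which held the highest value of both regions. The log2 fold change was 1.06 ± 0.29 with an edgeR adjusted p of 0.0108. Efna1 (0.12 ± 0.10) and Efna2 (0.14 ± 0.06) did not pass, and Efna2 was called with the animal as a block, at an edgeR adjusted p of 0.0323 (0.0225 to 0.193 over 22 alternative settings), with the neocortex covariate and without nicotine-sired females B and C.

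Most Eph receptors that passed were lower in the ventral hippocampus. Ephb1, a receptor of B ephrins that interacts with NMDA receptors at synapses, had the smallest p of all members. It ran from 24.6 through 27.6 to 30.9 CPM in ventral and from 35.3 through 40.5 to 51.7 CPM in dorsal libraries, and the regions did not overlap. It was lower in the ventral library of 12 of 12 animals, with a log2 fold change of -0.59 ± 0.05 and an edgeR adjusted p of 5.80e-08; 152 bp of its exons lie opposite the noncoding gene Gm26846. Epha7 had the largest decrease, and it is an EphA receptor known for sorting axons and shaping dendrites. It ran from 39.4 through 56.8 to 68.9 CPM in ventral and from 72.6 through 153 to 194 CPM in dorsal libraries, again without overlap. Its log2 fold change was -1.37 ± 0.15 with an edgeR adjusted p of 2.53e-06. Ephb1 lies on chromosome 9, 101922128 to 102354693, and Epha7 on chromosome 4, 28813131 to 28967499. Their promoters are shown as those of the Eph receptors with the smallest p and with the largest decrease (RefSeq, GRCm38.p6, chr9:102354644-102354943, minus strand, and chr4:28812881-28813180, plus strand). The Epha7 window, at 1 of 2 starts listed, holds 1 GGGCGG, on the opposite strand and in capitals, and the Ephb1 window none of the 4 motifs searched.
Ephb1: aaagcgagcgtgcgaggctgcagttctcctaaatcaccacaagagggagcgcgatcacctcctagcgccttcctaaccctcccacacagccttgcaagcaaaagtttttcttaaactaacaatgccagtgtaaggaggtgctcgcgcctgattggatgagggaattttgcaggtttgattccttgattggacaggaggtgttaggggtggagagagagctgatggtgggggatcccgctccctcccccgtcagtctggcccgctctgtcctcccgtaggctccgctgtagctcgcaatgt
Epha7: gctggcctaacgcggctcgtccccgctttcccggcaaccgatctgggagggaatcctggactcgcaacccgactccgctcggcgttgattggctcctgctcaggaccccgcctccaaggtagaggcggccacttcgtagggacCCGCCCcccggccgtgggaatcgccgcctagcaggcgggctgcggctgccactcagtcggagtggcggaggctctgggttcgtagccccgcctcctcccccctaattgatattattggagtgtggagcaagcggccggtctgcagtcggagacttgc

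The other EphA receptors that passed in this direction were Epha5, Epha4, Epha6 and Epha3. Epha5, a receptor of ephrin-A5, ran from 54.9 through 79.6 to 97.9 CPM in ventral and from 75.9 through 119 to 146 CPM in dorsal libraries. The ranges overlapped, but within each of the 12 animals the ventral library was lower. Its log2 fold change was -0.58 ± 0.08 with an edgeR adjusted p of 1.53e-05. Epha4 (199 ± 32.8 CPM in ventral and 306 ± 54.7 CPM in dorsal libraries; SD, n = 12) was lower by a log2 fold change of -0.62 ± 0.11, Epha6 by -0.82 ± 0.14 and Epha3 by -0.47 ± 0.12. Their edgeR adjusted p-values were 2.6e-04, 2.7e-04 and 0.00405, and Epha4 and Epha6 were lower in 12 and Epha3 in 11 of 12 animals. Ephb2, which like Ephb1 clusters NMDA receptors, was lower at -0.36 ± 0.05 and in 12 of 12 animals, with an edgeR adjusted p of 1.89e-05.

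The 2 Eph receptors that were higher in ventral libraries were Ephb6, which lacks kinase activity, and Epha8, one of the lowest members. Ephb6 averaged 68.5 ± 6.62 CPM in ventral and 54.9 ± 13.2 CPM in dorsal libraries (SD, n = 12), a log2 fold change of 0.33 ± 0.09 with an edgeR adjusted p of 0.00736. Its highest dorsal library, 86.8 CPM against at most 67.0 CPM in the others, was that of nicotine-sired female A. In that animal alone the ventral library was the lower one. Epha8 ran from 1.53 through 2.28 to 4.99 CPM in ventral and from 0.422 through 1.20 to 2.46 CPM in dorsal libraries, a log2 fold change of 0.84 ± 0.24 with an edgeR adjusted p of 0.0120. Ephb2 and Epha8 are neighbours on chromosome 4, 93.4 kb apart, and differed in opposite directions. Plxnb3 and Plxna3, 557 kb apart on chromosome X, did so as well. Epha2, Epha10, Ephb3 and Ephb4 did not pass; Epha10 and Ephb3 were called with the animal as a block and with each of 3 marker covariates, lower in ventral libraries each time. With the block they had edgeR adjusted p-values of 0.0480 (0.0216 to 0.228 over 22 alternative settings) and 0.0311 (0.0207 to 0.288 over 22 alternative settings).

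**Figure D3:**
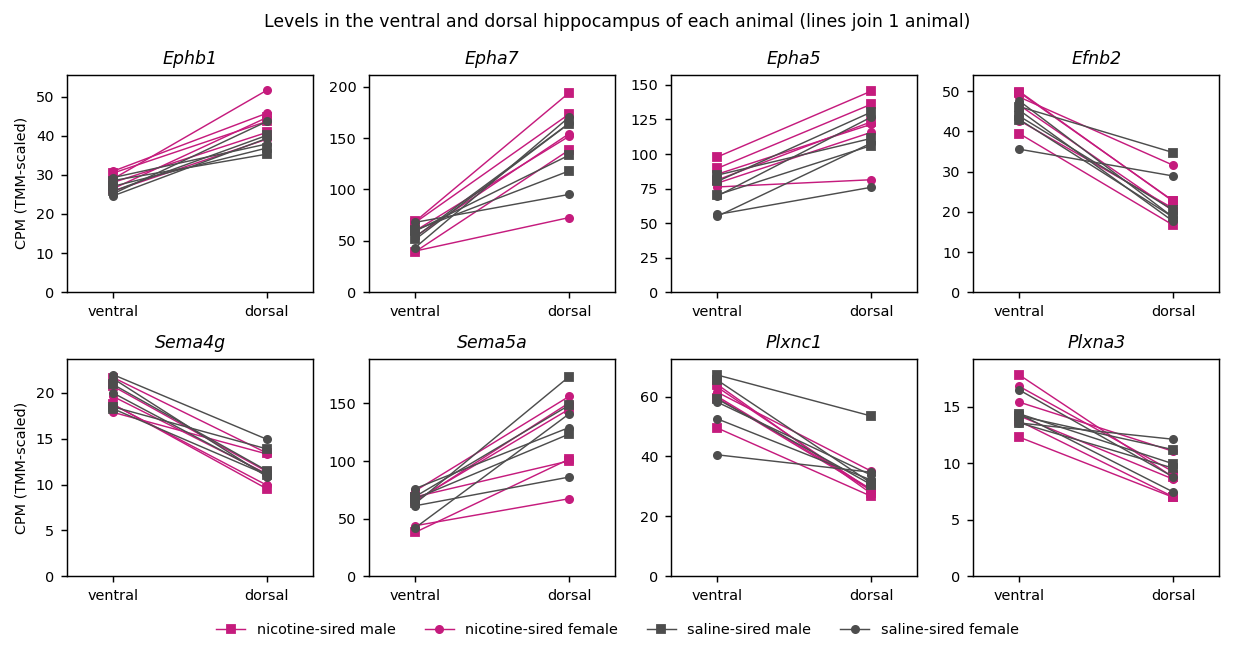
TMM-scaled CPM of 8 members in the ventral and the dorsal hippocampus of each of the 12 animals; a line joins the 2 libraries of 1 animal, colour gives sire treatment and shape gives sex. Lines fall toward dorsal in all 12 animals for Efnb2, Sema4g, Plxnc1 and Plxna3 and climb toward dorsal in all 12 for Ephb1, Epha7, Epha5 and Sema5a.

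Promoter windows were found for 45 of the 51 members among 27025 RefSeq promoters. No filter on level or gene type was applied to the 27025, whereas members reached 0.5 CPM and were all protein-coding. The sets therefore differ in more than gene family. The GC box GGGCGG, searched on both strands, was in 35 of the 45 member windows, or 77.8%, and in 35.9% of all promoters. It was in 13 of 15 members that were higher in ventral libraries, 8 of 13 that were lower and 14 of 17 that were not called. The E-box CAGCTG was in 7 of the 45 windows and in 16.1% of all promoters, the homeodomain core TAATTA in 2 and 5.31%, and AGGTCA, a core bound by nuclear receptors, in 5 and 16.0%. The median GC content was 64.7% in member windows and 52.7% in all promoters, with medians of 23 and 7 CpG dinucleotides. A letter match is a description of the window and shows no bound factor.

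Cell type markers differed between the regions along with the members. All 7 dentate granule cell markers were called lower in ventral libraries, and their sum ran from 152 through 251 to 297 CPM in ventral and from 271 through 480 to 619 CPM in dorsal libraries. No marker of this list was at 0. All 10 mature oligodendrocyte markers were lower in ventral libraries (sums of 3655 to 5009 CPM in ventral and 5106 to 9397 CPM in dorsal libraries), as were 10 of 12 choroid plexus markers (48.9 to 1987 CPM in ventral and 63.9 to 5684 CPM in dorsal libraries). Of 6 interneuron markers 3 were higher. With the mean log2 level of the dentate markers as a covariate, chosen after seeing the data, 17 members were called, of which 10 were among the 30. These were Ephb1 (-0.60), Epha7 (-0.45), Sema7a (-0.71), Sema4g (0.53), Sema4b (0.45), Plxnc1 (0.60), Plxna3 (0.48), Efna3 (0.32) and Sema6b (0.25) in the same direction, and Plxna4 (0.25), whose log2 fold change was -0.32 without the covariate. For Sema5a, Epha4, Epha6 and Epha3 the difference was between 0.02 and 0.05 under this covariate, and none of these 4 passed. Ephb6, Efna5, Epha8, Sema4a and Plxnd1 also changed sign under it, and did not pass with edgeR. Efnb2 (0.50), Efnb1 (0.14), Epha5 (-0.32) and Ephb2 (-0.10) kept their direction without passing, with edgeR adjusted p-values of 0.0798, 0.519, 0.216 and 0.518. Sema3b, Sema3d, Sema5b, Sema6c, Sema6d, Plxnb1 and Plxnb3 did so as well. Among the 30, Efna3 was thus the only ephrin still called, and Ephb1 and Epha7 the only Eph receptors. Of all 51 members 17 changed sign. The 7 members called with the covariate and not without it were Nrp1 (0.62 ± 0.10), Nrp2 (0.76 ± 0.12), Efnb3 (0.39 ± 0.09) and Sema3e (0.37 ± 0.10), higher in ventral libraries, and Sema3a (-2.24 ± 0.24), Epha10 (-0.49 ± 0.13) and Ephb3 (-0.48 ± 0.13), lower there. Marker level and region move together here, so the part of dentate granule cells in the members' differences cannot be told apart from region itself. With neocortex markers as a covariate 30 members were called, 24 of them among the 30; the other 6 were Efna2, Efnb3, Epha10, Ephb3, Nrp2 and Sema3a. With choroid plexus markers as a covariate 28 were called, 26 of them among the 30, and Efna5, Plxnd1, Sema3b and Sema4a were not.

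**Figure D4:**
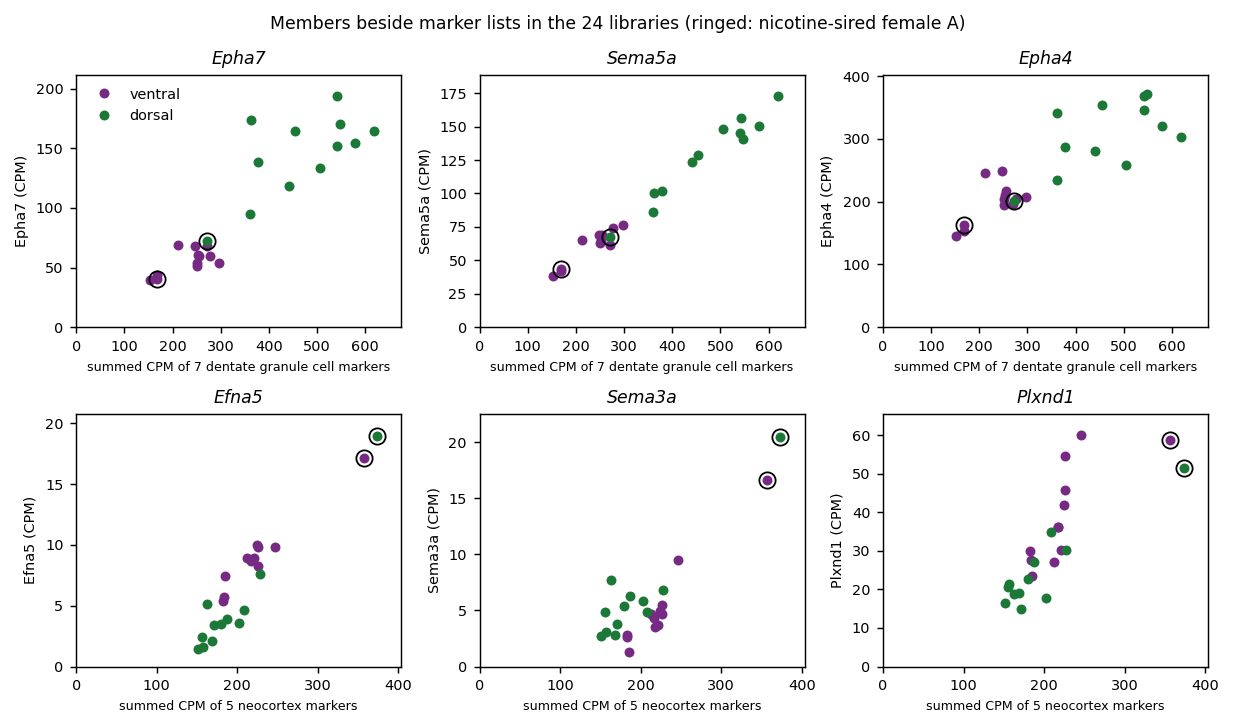
CPM of Epha7, Sema5a and Epha4 (vertical axes) against the summed CPM of 7 dentate granule cell markers, and of Efna5, Sema3a and Plxnd1 against the summed CPM of 5 neocortex markers, in the 24 libraries by region. Libraries of nicotine-sired female A are ringed: with 357 and 373 CPM of neocortex markers they hold the highest Efna5 (17.1 CPM ventral, 18.9 CPM dorsal) and Sema3a (16.6 CPM ventral, 20.5 CPM dorsal) of their regions.

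The region difference was then taken within the offspring of each kind of sire. In nicotine-sired animals 20 members were called (16.9% of all genes), of which 8 were higher (8.72% of all genes) and 12 lower (8.15%). In saline-sired animals 21 were called (14.5% of all genes), of which 9 were higher (6.78%) and 12 lower (7.72%). Ephb1 differed by -0.64 ± 0.07 in nicotine-sired and -0.54 ± 0.07 in saline-sired animals, and Epha7 by -1.41 ± 0.21 in nicotine-sired and -1.33 ± 0.21 in saline-sired animals. The corresponding values were 1.04 ± 0.16 and 0.91 ± 0.16 for Efnb2. The test of the difference between these differences called 0 members and 0.0% of all genes by edgeR and 0 members by DESeq2; 2 members had an unadjusted p under 0.05, beside 4.76% of all genes. The smallest p-values were those of Sema6c (-0.34 ± 0.14), Plxnc1 (0.36 ± 0.16) and Sema7a (-0.31 ± 0.16), each with an edgeR adjusted p of 0.88. The count in saline-sired animals was 28 when nicotine-sired female A was left out and 11 when saline-sired male B was, and that in nicotine-sired animals was 8 without nicotine-sired females B and C together.

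Genes that work with these families also differed between regions. Of 33 tested semaphorin and plexin partners, 13 were called higher and 7 lower in ventral libraries, with a median log2 fold change of 0.06. The shares over all genes are 14.3% higher and 14.9% lower, as above, with a median of -0.01. The collapsin response mediator genes Dpysl3 (0.53 ± 0.05), Dpysl5 (0.56 ± 0.06) and Dpysl4 (0.47 ± 0.05), which relay semaphorin signals to microtubules, and L1cam (0.62 ± 0.07), an adhesion partner of neuropilin 1, were higher. Cntn2 (-0.44 ± 0.05) and the actin-oxidising enzyme gene Mical2 (-0.31 ± 0.05) were lower. Of 31 tested ephrin and Eph partners, 4 were higher and 13 lower, with a median of -0.07. Kalrn (-0.52 ± 0.05), the chimaerin genes Chn1 (-0.41 ± 0.05) and Chn2 (-0.48 ± 0.07) and the phosphatase gene Ptpn11 (-0.30 ± 0.04) were lower. The adaptor genes Grb10 (0.50 ± 0.07) and Grip1 (0.43 ± 0.06) and the exchange factor gene Vav2 (0.44 ± 0.07) were higher. Of 34 tested ligands and receptors of other guidance systems, 9 were higher and 5 lower, with a median of 0.05. Slit2 (0.70 ± 0.09), a repulsive ligand of Robo receptors, Ntng2 (0.36 ± 0.04) and Flrt3 (0.57 ± 0.07) were higher, and Robo3 (-1.50 ± 0.18) and Unc5b (-0.51 ± 0.07) were lower.

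The study's own question was the effect of the sire's treatment on the offspring. In the dorsal hippocampus, averaged over the sexes, edgeR called 0 of 51 members (0.0784% of all genes, 0.0261% higher and 0.0523% lower), DESeq2 called 0 (1.07% of all genes), and 5 members had an unadjusted p under 0.05 (10.8% of all genes). The smallest p-values belonged to Plxnb3 (0.30 ± 0.10), Ephb1 (0.19 ± 0.07) and Sema7a (0.30 ± 0.12), with edgeR adjusted p-values of 0.347, 0.352 and 0.396. For Sema7a the dorsal libraries held 137, 114 and 154 CPM in nicotine-sired males, 209, 123 and 155 CPM in nicotine-sired females, 116, 131 and 116 CPM in saline-sired males and 119, 126 and 115 CPM in saline-sired females. The groups overlapped, and the 209 CPM came from nicotine-sired female A.

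The dorsal hippocampus of males gave 1 called member, the ephrin ligand gene Efna3 (chromosome 3, 89313899 to 89322965), where 1.78% of all genes were called, 0.47% higher and 1.31% lower. DESeq2 called 2 members (4.58% of all genes), and 9 had an unadjusted p under 0.05 (17.6% of all genes). It held 60.8, 60.3 and 66.5 CPM in nicotine-sired males and 46.7, 49.3 and 52.9 CPM in saline-sired males. All 3 nicotine-sired males lay above all 3 saline-sired males, and the log2 fold change was 0.33 ± 0.07 with an edgeR adjusted p of 0.0361. In females the order was turned round, with 52.8, 55.7 and 50.3 CPM in nicotine-sired and 59.0, 65.3 and 63.2 CPM in saline-sired females. These groups did not overlap either, but the female difference of -0.23 ± 0.07 did not pass (edgeR adjusted p of 0.226). The test of the male minus the female difference gave 0.56 ± 0.10 with an edgeR adjusted p of 0.0185. Efna3 was the only member called by that test in edgeR (2.24% of all genes, 0.847% higher), DESeq2 called 6 members (6.7% of all genes), and 13 had an unadjusted p under 0.05 (20.2% of all genes). The male call was made in 14 of 23 alternative settings (edgeR or DESeq2 adjusted p from 0.0024 to 0.148, log2 fold change from 0.29 to 0.37). Of the 12 refits without 1 library, 7 lost it: those without any 1 of the 6 males and that without saline-sired female B. The test of the difference between the sexes was past the threshold in 20 of 23 settings, and not without nicotine-sired male C, nicotine-sired female C or saline-sired female B (adjusted p from 1.1e-04 to 0.0625 over the 23). Efna3 has 344 bp of exon opposite the antisense gene Gm15998, and whether the deposited counts used strand is not given in the sources used here.

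Further dorsal members had a difference that went opposite ways in the sexes without passing with edgeR. Sema6b had a male minus female difference of 0.51 ± 0.13, Ephb2 of 0.51 ± 0.13 and Sema6c of 0.72 ± 0.19, with edgeR adjusted p-values of 0.0542, 0.0575 and 0.0629. DESeq2 called this difference for Sema6b and Ephb2, with DESeq2 adjusted p-values of 0.0099 and 0.0163. Ephb2 held 30.0, 30.1 and 35.2 CPM in nicotine-sired males, against 26.5, 26.7 and 24.3 CPM in saline-sired males, and 25.4, 27.2 and 29.5 CPM in nicotine-sired females, against 33.5, 34.3 and 28.4 CPM in saline-sired females. The males did not overlap and the females did. In dorsal males 13 of 51 members had groups without overlap, where 26.6% of 16889 genes did, and in dorsal females 6 members did, where 18.9% of genes did. The 13 in males were about the share found among all genes. Efna2, Efna3, Efnb3, Ephb1, Ephb2, Ephb3, Ephb4 and Ephb6 were higher in nicotine-sired males. Epha10, Epha2, Nrp2, Plxna3 and Plxnc1 were lower, and no share of all genes was taken by direction. Epha10 (-0.36 ± 0.11) and Ephb2 (0.29 ± 0.09) had edgeR adjusted p-values of 0.112 and 0.133 in males. DESeq2 called Epha10 in males, with a DESeq2 adjusted p of 0.0475, and not Ephb2. In dorsal females edgeR called 0 members (0.0314% of all genes, 0.0105% higher and 0.0209% lower) and DESeq2 called 2 (1.36% of all genes), Sema6b and Plxnb3; 10 members had an unadjusted p under 0.05 (13.3% of all genes). Sema6b held 94.3, 98.9 and 95.5 CPM in nicotine-sired females and 118, 129 and 130 CPM in saline-sired females, without overlap, and its log2 fold change of -0.38 ± 0.09 had an edgeR adjusted p of 0.182. Plxnb3 held 15.7, 20.0 and 20.9 CPM in nicotine-sired females and 13.2, 13.2 and 11.6 CPM in saline-sired females, also without overlap, with 0.58 ± 0.15 and an edgeR adjusted p of 0.192.

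In the ventral hippocampus, averaged over the sexes, edgeR called 1 member, where it called 1.75% of all genes, 1.1% higher and 0.65% lower. DESeq2 called 3 members (3.54% of all genes), and 6 had an unadjusted p under 0.05 (15.7% of all genes). This was the receptor gene Epha5 (chromosome 5, 84054761 to 84417382). It held 97.9, 81.3 and 89.7 CPM in nicotine-sired males, against 84.7, 80.2 and 70.5 CPM in saline-sired males. In females it held 76.2, 78.9 and 85.4 CPM in nicotine-sired animals, against 69.6, 54.9 and 56.2 CPM in saline-sired animals. The female groups did not overlap and the male groups did. The log2 fold change was 0.30 ± 0.07 with an edgeR adjusted p of 0.0473, and it lost the call in 9 of 12 refits without 1 library, all but those without nicotine-sired male B, nicotine-sired female A or saline-sired female A. Over 22 settings the adjusted p ran from 0.00696 to 0.9999 and the log2 fold change from 0.04 to 0.36. The lowest value came with the antisense ratio as a covariate, which is the summed count of noncoding genes opposite coding genes over that of their hosts. That ratio was 0.304% to 0.354% in ventral libraries of nicotine-sired males and no higher than 0.255% in the remaining ventral libraries, and in females it was 0.219% to 0.255% in nicotine-sired and 0.197% to 0.217% in saline-sired ventral libraries. All 6 nicotine-sired ventral libraries thus lay above all 6 saline-sired ones, and the ratio and sire treatment cannot be told apart there. Sema6c, the only member without overlap between the 6 nicotine-sired and the 6 saline-sired ventral libraries (1.12% of genes had none), held 11.6 to 13.3 CPM in nicotine-sired and 13.7 to 22.8 CPM in saline-sired animals. The 22.8 CPM were in saline-sired female C, and the next highest saline-sired ventral library held 15.1 CPM. The log2 fold change of Sema6c, -0.36 ± 0.10, had an edgeR adjusted p of 0.0807, and that of Sema6b, -0.17 ± 0.05, one of 0.113. DESeq2 called both Sema6c and Sema6b, with DESeq2 adjusted p-values of 0.0244 and 0.0457.

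Within ventral males edgeR called 0 members (3.21% of all genes, 1.82% higher and 1.39% lower), DESeq2 called 0 (4.65% of all genes) and 3 had an unadjusted p under 0.05 (15.8% of all genes). Sema6a (0.32 ± 0.10), Ephb3 (0.41 ± 0.13) and Sema4f (-0.21 ± 0.08) came nearest, with edgeR adjusted p-values of 0.0912, 0.112 and 0.220. Within ventral females edgeR called 0 (0.0312% of all genes), DESeq2 called 5 (1.4% of all genes) and 12 had an unadjusted p under 0.05 (13.9% of all genes). Plxnb1 held 76.2, 81.2 and 87.7 CPM in nicotine-sired females and 106, 96.7 and 109 CPM in saline-sired females, without overlap. Sema6b held 109, 114 and 115 CPM in nicotine-sired females and 132, 142 and 150 CPM in saline-sired females, again without overlap. The log2 fold changes were -0.35 ± 0.08 for Plxnb1, -0.33 ± 0.07 for Sema6b and 0.41 ± 0.10 for Epha5, with edgeR adjusted p-values of 0.132, 0.108 and 0.145. DESeq2 called each of these in females, with DESeq2 adjusted p-values of 0.0232, 0.00357 and 0.0235. Groups did not overlap for 9 members in ventral males (22.5% of genes) and for 10 in ventral females (20.5% of genes). The male minus female difference was called for 0 members by edgeR (1.07% of all genes) and for 1 by DESeq2 (2.72% of all genes), Plxnb1, and 13 members had an unadjusted p under 0.05 (14.2% of all genes). Plxnb1 had a difference of 0.46 ± 0.12 with an edgeR adjusted p of 0.0856.

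**Figure D5:**
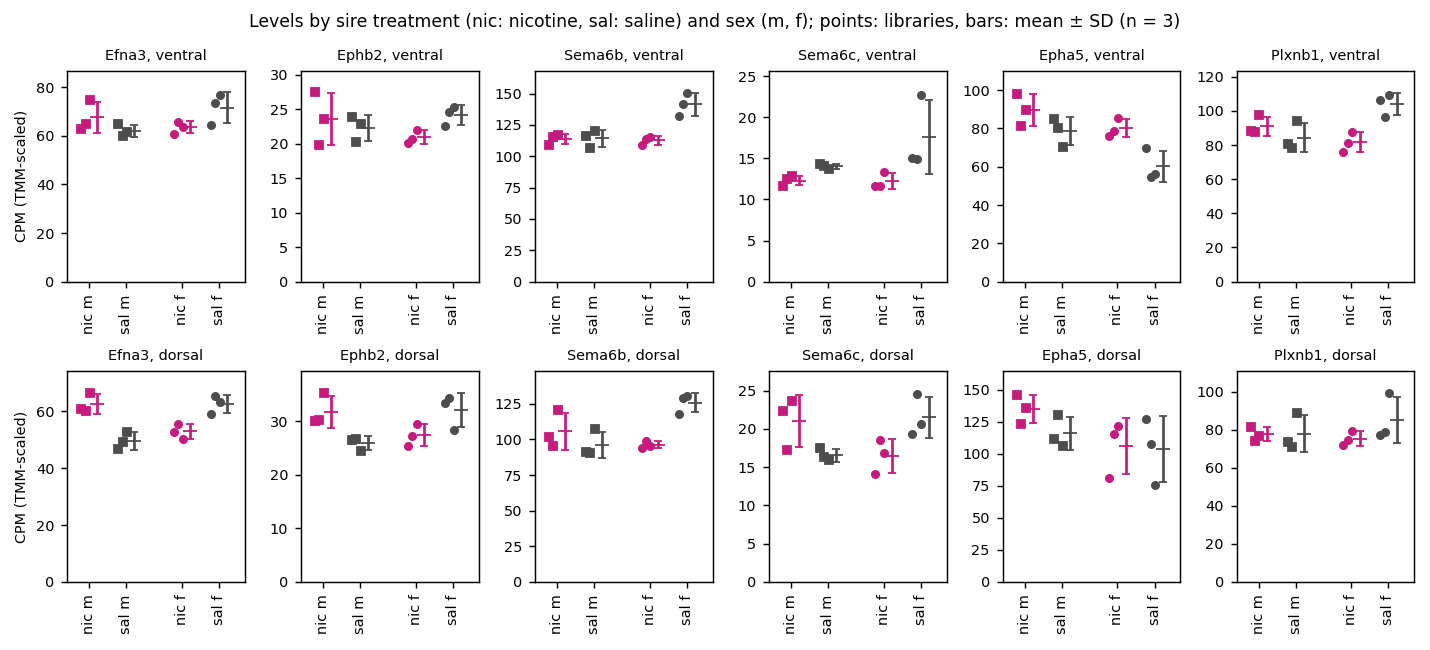
TMM-scaled CPM of 6 members by sire treatment and sex in the ventral (top) and dorsal (bottom) hippocampus; points are libraries, and bars give the mean and SD of 3. Dorsal Efna3 lies at 60.3 to 66.5 CPM in nicotine-sired and 46.7 to 52.9 CPM in saline-sired males, and at 50.3 to 55.7 CPM in nicotine-sired and 59.0 to 65.3 CPM in saline-sired females.

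Few partner genes passed for sire treatment. In dorsal males Itsn1, an exchange factor that works with EphB2, was lower at -0.29 ± 0.07 with an edgeR adjusted p of 0.0472, the 1 called gene of 98 partner and other guidance genes tested, where 1.78% of all genes were called. In the dorsal male minus female difference Cntn2 (-0.70 ± 0.13), Chn2 (-0.84 ± 0.17) and Crmp1 (0.62 ± 0.12) were called, where 2.24% of all genes were, and their edgeR adjusted p-values were 0.0228, 0.0321 and 0.0287. The ventral hippocampus gave 1 partner gene, where 1.75% of all genes were called over both sexes and 3.21% in males. Cd72, a lymphocyte receptor of Sema4d, was higher in nicotine-sired animals over both sexes (2.08 ± 0.33) and in males (2.97 ± 0.46) there, with edgeR adjusted p-values of 0.00602 and 0.00246. Its mean ventral level was only 0.443 CPM, and its last exon lies opposite an exon of Tesk1, so its count is uncertain where strand use is not known. As given with Epha5, every nicotine-sired ventral library had a higher antisense ratio than every saline-sired one. That ratio and sire treatment cannot be told apart for Cd72 either.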

How the data were processed

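Poly(A) RNA of 24 hippocampus samples was sequenced on stranded libraries as single-end reads of 150 bp over 3 lanes, per the labels' protocols. Whole-number counts per gene, not normalized, were deposited by the authors for 51912 genes. Cuffdiff 2.2.1.3, Cufflinks and TopHat2 2.1.0, and the builds GRCm38 and mm10, appear without a stated role in the submitters' processing notes. Which tool made the counts, with which annotation and strand setting, is not given in the sources used here. GENCODE M21 holds 51719 of the gene IDs and gave exon lengths, positions and overlaps.

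Levels are CPM, scaled by TMM (trimmed mean of M-values) in the per-library values and unscaled in the membership rule. Tests used edgeR 4.0.16 (R 4.3.3) on the counts: TMM, the default low-count filter by group, robust quasi-likelihood F tests and Benjamini-Hochberg adjustment at 0.05 over all genes tested. Region comparisons used 24 libraries in 1 fit (19849 genes), without an animal block. Sire treatment was fitted within dorsal (19130 genes) and ventral (19224 genes) libraries, for both sexes, each sex, and males minus females. The steps were tested on simulated data. Alternatives were DESeq2 1.42.0 as a test and as size factors, no filter, no robust step, a shared spread, replicate blocks, marker and antisense covariates, and each animal left out in turn. Neocortex and dentate covariates and the joint removal of animals were chosen after seeing the data. The title prefix gives the animal, so the regions of 1 animal are paired; the correlations of their deviations ran from -0.115 to 0.659. No columns were identical. Members past the threshold were named, up to 12 per direction, or else the 3 with the smallest p; further genes named for an overlap or an alternative's call were chosen after their values were seen. The members and lists were chosen with earlier results of these data known.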

Additional observations from a re-analysis of the deposited data

Results flagged for a closer look

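The sire treatment difference of Efna3 in the dorsal hippocampus differed between the sexes. Its log2 fold change, nicotine-sired over saline-sired, was 0.33 ± 0.07 in males and -0.23 ± 0.07 in females (SE), and the male minus female difference was 0.562 ± 0.10, with an edgeR adjusted p of 0.0185. All 3 nicotine-sired males were above all 3 saline-sired males, and all 3 nicotine-sired females were below all 3 saline-sired females. Groups likewise did not overlap for 26.6% of 16889 genes in dorsal males and 18.9% in dorsal females. The female difference did not pass (edgeR adjusted p of 0.226). Of 12 refits without 1 library, 7 lost the male call and 3 lost the call for the difference between the sexes. That difference was called for 1 of 51 members, beside 2.24% of all genes. Each of these 4 groups carries a title number of its own, so sire treatment and what that number marks cannot be told apart.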

How the results depend on the processing

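Values under alternative settings were gathered for the members called in a comparison, or the 3 with the smallest p where fewer passed. This set left out region within 1 kind of sire and held 1263 values. Of these, 1146 kept direction and side of the threshold, 73 kept direction and lost a call, 34 gained one and 10 changed sign. All of the 10 but Plxna4 also lost their call. Members outside this set could change sign or gain a call too, as Sema3e and Sema3f did. All 10 sign changes within it came with the dentate marker covariate in the region comparison: log2 fold changes became 0.022 for Sema5a, 0.054 for Epha4, 0.024 for Epha6, 0.039 for Epha3, -0.062 for Ephb6, 0.25 for Plxna4, -0.34 for Efna5, -0.092 for Epha8, -0.18 for Sema4a and -0.52 for Plxnd1. With that covariate 17 members were called between regions in all animals, 8 in saline-sired and 12 in nicotine-sired animals, beside 30, 21 and 20 without it. With the animal as a replicate block the region counts were 34, 27 and 29. Same-lettered libraries within a region did not deviate together (4 of 18 pairs over 0.1 in each region), and a block on the letter left 0 members in dorsal males and gave 1 in the ventral male minus female difference.

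Leaving out 1 animal at a time gave 27 to 30 members between regions, 11 to 28 in saline-sired and 18 to 25 in nicotine-sired animals, and 0 to 0 for region by treatment. For sire treatment it gave 0 to 0 in dorsal libraries of both sexes, 0 to 3 in dorsal males, 0 to 0 in dorsal females and 0 to 5 for the dorsal male minus female difference, beside 0, 1, 0 and 1. The 3 and the 5 came without nicotine-sired female A. In ventral libraries it gave 0 to 2 in both sexes and 0 to 1 in males, in females and for male minus female. Without nicotine-sired females B and C the count was 8 for region in nicotine-sired animals, 4 in dorsal libraries of both sexes, 6 in dorsal females, 11 for dorsal male minus female and 0 in ventral libraries of both sexes. Without nicotine-sired female A, saline-sired female C and male C it was 3 in dorsal males and 9 for dorsal male minus female.

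In dorsal males DESeq2 called 2, the neocortex covariate 2 and the antisense covariate 0. In dorsal females DESeq2 called 2 and the spread of all 24 libraries 1. For dorsal male minus female DESeq2 called 6, no filter 4, the antisense covariate 2, the shared spread 4 and the neocortex covariate 6. In ventral libraries of both sexes DESeq2 called 3 and no filter 2, and the fit without the robust step, the choroid plexus, antisense and neocortex covariates and the shared spread each called 0. The neocortex covariate called 1 in ventral males. In ventral females no filter called 2 and DESeq2 called 5, and DESeq2 called 1 for ventral male minus female. The cause of these shifts was not tested. Precision was set by 3 libraries a group and a biological coefficient of variation of 0.16 in dorsal and 0.118 in ventral libraries.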
